A study of Mus musculus with 3 samples.

Results

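The cells described are interstitial stromal cells of the neonatal mouse testis that carry transcripts of Htra3, Vcam1, Smoc2 and Cyp26b1. They were picked from unique molecular identifier (UMI) counts, each UMI standing for 1 captured RNA molecule. A member had at least 5 UMIs summed over Col1a1, Col1a2, Col3a1 and Dcn, and at least 2 UMIs over the 4 marker genes, more than it had over Dpt, Agtr2, Lum and Clec3b. It also had at most 4 UMIs of Acta2, Myh11 and Tagln, at most 5 of Cyp11a1, Cyp17a1 and Hsd3b1, and at most 2 of Amh, Sox9, Cldn11 and Inha, which keeps out most contractile, steroid-producing and Sertoli cells. Cells with 4 or more UMIs of Ube2c, Cenpf, Plk1 and Cenpa, or with 3 or more of Rrm2, Tk1, Clspn and Tyms, were left out as dividing. The rule was met by 3026 of 14422 cells, of which 1082 came from the Cdk2-Y15S library, 1023 from the Cdk2-HET library and 921 from the Cdk2-WT library. The genes of the rule, and contrasts between cells that the rule separated, chose these cells and are given as description only.

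The study profiled whole testis suspensions from male mouse pups with 3′ single-cell RNA sequencing (10x Genomics, version 2 chemistry) of polyadenylated RNA. The pups came from matings of Cdk2 +/YS animals on a mixed genetic background, B6(Cg)-Tyrc-2J/J with FVB/NJ, were labelled postnatal day 3 with dissection at 3.5 days, and received no treatment. Testes were stripped of their capsule and broken up with trypsin, EDTA and DNase before loading, and no cell type was sorted. In Cdk2-Y15S the tyrosine of CDK2 that inhibitory kinases phosphorylate is replaced by serine. Cdk2-HET and Cdk2-WT are libraries of the other genotypes from these matings, and no Cre or transgene is named. Each genotype is 1 library, and the labels do not say how many pups went into it, so no test between genotypes was possible. All intervals below cover counting error at 95% only. Levels in CPM (a gene's UMIs scaled to the summed UMIs of its class) have exact Poisson intervals. Shares of cells have Clopper-Pearson intervals, and ratios have conditional exact binomial intervals. Log2 ratios were taken with 0.5 UMI added to each sum, whereas their intervals used the UMIs as counted. The difference between 2 pups of the same genotype, between 2 dissociations, and between genotypes cannot be told apart.

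The interstitium of the testis is the connective tissue between the seminiferous tubules, and its mesenchyme holds fibroblast-like cells, vessels, macrophages and steroid-producing Leydig cells. In the mouse fetus, interstitial progenitors that express Nr2f2, Tcf21 and Pdgfra receive desert hedgehog and PDGF from the tubules and give rise to Leydig cells and other stroma. Fetal Leydig cells make androgen and the peptide INSL3, which acts on the gubernaculum during testis descent. Among the markers, Htra3 encodes a secreted serine protease, Smoc2 a calcium-binding matrix protein, Vcam1 an adhesion receptor for integrins, and Cyp26b1 an enzyme that breaks down retinoic acid.

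The members carried the interstitial genes that the rule had not used. Pdgfra, the PDGF receptor of testis mesenchyme, was at 286, 293 and 246 CPM in Cdk2-Y15S, Cdk2-HET and Cdk2-WT members. The transcription factor Nr2f2 was at 334, 323 and 351 CPM and Tcf21 at 277, 298 and 178 CPM in the same order. Cells gated as Sertoli (more than 2 UMIs of the Sertoli genes and fewer than 5 of the stromal genes of the rule) had at most 4.73 CPM of Nr2f2, 4.45 CPM of Pdgfra and 3.27 CPM of Tcf21 in any library. Other stromal classes shared much of this pattern. Stroma that met the same gates but had at least 2 UMIs of Dpt, Agtr2, Lum and Clec3b, and more of these than of the markers, is called Dpt and Lum stroma below (478 cells). The remaining 186 gated stromal cells had equal sums or too few UMIs of both sets and were put in neither class. The Dpt and Lum stroma had 236 to 272 CPM of Pdgfra, and cells gated as peritubular myoid (more than 4 UMIs of the contractile genes) had 222 to 419 CPM of Tcf21.

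The 4 marker genes, Htra3 on chromosome 5 (35652023 to 35679782, minus strand, GRCm38), Smoc2 on chromosome 17 (14279506 to 14404790, plus strand), Cyp26b1 on chromosome 6 (84571414 to 84593908, minus strand) and Vcam1 on chromosome 3 (116109949 to 116129688, minus strand), were not exclusive to the members. Htra3 was at 1201, 1224 and 1042 CPM in Cdk2-Y15S, Cdk2-HET and Cdk2-WT members, against 448, 403 and 303 CPM in Dpt and Lum stroma and 562 to 687 CPM in the myoid gate. Smoc2 was at 1111, 1265 and 1238 CPM in members and at 576, 801 and 607 CPM in Dpt and Lum stroma. Cyp26b1, at 221, 187 and 135 CPM in members, and Vcam1, at 71.2, 64.4 and 39.8 CPM, were lower in both of these classes. Cells gated as Leydig (more than 5 UMIs of Cyp11a1, Cyp17a1 and Hsd3b1; 29, 18 and 22 cells) had more Cyp26b1, at 469, 626 and 591 CPM, and more Vcam1, at 155, 261 and 141 CPM, than the members. Smoc2 was detected in 82.9% to 93.9% of Dpt and Lum cells and in 85.6% to 87.4% of cells of the myoid gate. The name therefore describes how the cells were chosen, and the rule itself set the members above the Dpt and Lum stroma in the sum of the 4 genes.

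**Figure D1:**
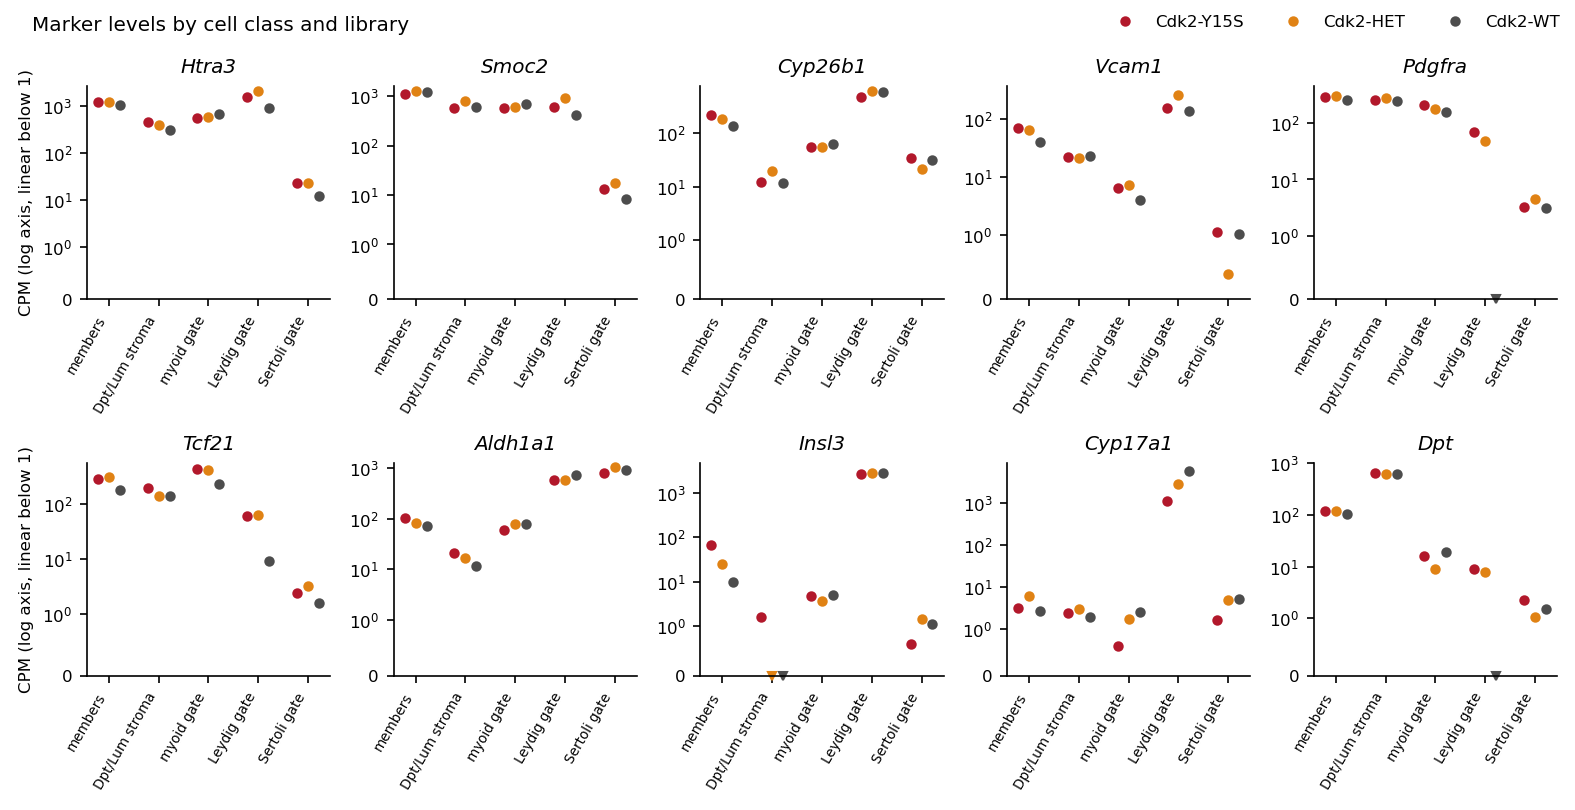
CPM of the 4 marker genes and of Pdgfra, Tcf21, Aldh1a1, Insl3, Cyp17a1 and Dpt (vertical axes, logarithmic above 1 CPM and linear below) in 5 cell classes, with 1 point for each of the 3 libraries and triangles at 0. Htra3 and Smoc2 sit near 1000 CPM in members and Pdgfra near 250 to 290 CPM, while Cyp17a1 sits at 1137 to 5683 CPM in the Leydig gate and at 2.68 to 6.10 CPM in members.

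Nearly every member held Htra3 and Smoc2, while Vcam1 and Cyp26b1 were found in fewer. Smoc2 was detected in 97.3%, 97.9% and 97.5% of Cdk2-Y15S, Cdk2-HET and Cdk2-WT members, and in 93.9%, 95.4% and 95.8% once each cell was thinned to 3000 UMIs (99, 57 and 136 members were shallower and left out). Cyp26b1 was detected in 49.3%, 44.8% and 34.3%, or in 36.4%, 32.4% and 26.6% after thinning. Vcam1 was detected in 27.4%, 23.9% and 14.9%, or in 16.5%, 14.7% and 10.4% after thinning. In the Sertoli gate, used as the background from free RNA, Vcam1 was detected in 0.700%, 0.232% and 0.593% of cells and Smoc2 in 7.70%, 9.68% and 4.61%, while Cyp26b1 was detected in 15.9%, 11.5% and 14.8%. Sertoli cells are themselves a known source of the Cyp26b1 enzyme in the fetal mouse testis, so for this gene the gate does not measure background. The part of free RNA in the members' Cyp26b1 share was not tested.

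Depth was similar across libraries. Members held a median of 5367 UMIs in Cdk2-Y15S, 5377 in Cdk2-HET and 4810 in Cdk2-WT, summing to 5873838, 5570369 and 4476002 UMIs. The median mitochondrial share of a member's UMIs was 2.90%, 2.97% and 2.64%. A barcode sequence also present in another library was carried by 174 of all cells and 34 members, and 6 members shared it with a member elsewhere. A doublet caller marked 66, 94 and 88 cells in the 3 libraries and 0, 0 and 2 of the members, which were kept. None of the 141 cells that the authors had assigned to germ cell clusters met the rule (0 of 141). Those cells came from the Cdk2-WT and Cdk2-Y15S libraries only, so Cdk2-HET members were not checked in this way.

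The rule cut a continuum rather than a gap. Members had a median of 12 UMIs of the 4 markers and 1 UMI of Dpt, Agtr2, Lum and Clec3b, and 1132 members (37.4%) had none of the second set. In 663 of 3690 gated stromal cells the 2 sums differed by at most 2 UMIs, 294 of them members and 186 in neither class. Just inside the marker cut, 54 cells with 2 marker UMIs had 288 CPM of Pdgfra and 1651 CPM of Col1a1, and just outside it 30 cells with 1 marker UMI had 258 and 1142 CPM. Where the markers exceeded the Dpt set by 1 UMI, 122 cells had 3695 CPM of Dcn, and 108 cells with equal sums had 4010 CPM.

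Members made up 24.6% of cells in the Cdk2-Y15S library (23.3 to 25.9%), 20.6% in Cdk2-HET (19.5 to 21.8%) and 18.2% in Cdk2-WT (17.1 to 19.3%). Among stromal cells that passed the same gates they made up 78.2%, 85.1% and 83.3%, so the order of the libraries depended on the denominator. With the rule applied to cells thinned to 3000 UMIs, and shallower cells left out, the shares of all cells were 25.5% in Cdk2-Y15S, 24.0% in Cdk2-HET and 20.3% in Cdk2-WT, which narrows the gap between the first 2. Dpt and Lum stroma was 5.31% of cells in Cdk2-Y15S, 2.66% in Cdk2-HET and 2.21% in Cdk2-WT. A share of a library can also move with the recovery of the other cells: the Sertoli gate held 1000, 1291 and 1518 cells. Before dividing cells were left out, stroma over the S phase gate was 8.21% (6.90 to 9.67%), 11.7% (10.1 to 13.5%) and 14.2% (12.4 to 16.2%) in Cdk2-Y15S, Cdk2-HET and Cdk2-WT.

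The most abundant transcripts outside the ribosome and mitochondrion were Malat1, Eef1a1, Meg3, Tpt1, Fth1, Dlk1, Lgals1, Vim, Actg1 and Fos. Meg3 and Dlk1, neighbours in an imprinted cluster, were at 9508, 9418 and 9342 CPM and at 3386, 3828 and 3676 CPM in Cdk2-Y15S, Cdk2-HET and Cdk2-WT members. Vim, the intermediate filament of mesenchyme, was at 3917, 3295 and 3071 CPM. Fos, an immediate early gene that enzymatic dissociation is known to induce, was at 3044, 3626 and 3438 CPM. Because a 3′ library counts each molecule at its end, these levels are in CPM and were not divided by gene length.

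The members and the Dpt and Lum stroma, which the rule had separated, differed by this much in few genes. Among 9441 genes with at least 100 UMIs over both sets, 75 (0.794%) were at least 2-fold higher in members in each of the 3 libraries and 71 (0.752%) at least 2-fold lower. The 15 genes with the highest ratio in their least different library were Insl3, Egr4, Vnn1, Drc1, Otof, Asb2, Aldh1a1, Gsta1, Myoc, Bmp7, Slc38a5, Mmd2, Plin1, Acsbg1 and Aqp2. Egr4 was in 2.96%, 3.62% and 2.71% of Cdk2-Y15S, Cdk2-HET and Cdk2-WT members and in 3.48%, 4.32% and 7.04% of the myoid gate. In these members 5 cells of each library held 64.2%, 41.3% and 60.8% of the Egr4 UMIs. Aldh1a1, which makes retinoic acid from retinal, was at 104, 83.8 and 72.2 CPM in Cdk2-Y15S, Cdk2-HET and Cdk2-WT members and at 20.7, 16.4 and 11.7 CPM in Dpt and Lum stroma. Aldh1a1 was not particular to members. It was detected in 29.8%, 26.6% and 21.6% of them and in 20.5%, 26.9% and 26.1% of the myoid gate. In the Sertoli gate it was detected in 94.3%, 95.2% and 91.6% of cells. Its relative Aldh1a2 had the reverse pattern, at 12.9, 12.0 and 20.3 CPM in members and 39.1, 52.3 and 78.1 CPM in Dpt and Lum stroma. The members of each library lay on the same side of the Dpt and Lum stroma of every library for both genes.

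Acsbg1, Gsta1, Bmp7, Vnn1 and Mmd2 were also among these 15, a ranking against Dpt and Lum stroma only. RNA of Vnn1, Acsbg1 and Mmd2 was also counted in the Sertoli gate and that of Bmp7 in the myoid gate. These 4 genes were thus not particular to members. Acsbg1, an acyl-CoA synthetase, was at 97.4, 72.7 and 64.8 CPM in members and at 12.8, 22.4 and 13.7 CPM in Dpt and Lum stroma. Gsta1, a glutathione transferase, was at 41.4, 48.1 and 44.7 CPM in members, and Bmp7, a bone morphogenetic protein, at 25.4, 20.1 and 19.2 CPM, against 8.96 CPM or less and 4.48 CPM or less in Dpt and Lum stroma. Vnn1, a pantetheinase, was at 25.9, 27.8 and 23.9 CPM in members. In the Cdk2-WT library no Vnn1 UMI was seen in 112 Dpt and Lum cells, where 3 UMIs would be 5.86 CPM, so it was at least 4.08-fold higher in members there. Mmd2 was more abundant, at 229, 241 and 216 CPM in members and 61.4, 62.7 and 29.3 CPM in Dpt and Lum stroma.

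The 15 lowest genes were Postn, Col12a1, Epha3, Crip2, Crip1, Qpct, Aldh1a2, Galnt13, Cd44, Wnt2, Mfap5, Fhl1, Cd55, Cadm3 and Mmp16. Postn and Col12a1, matrix proteins of load-bearing connective tissue, were at 30.6, 14.4 and 5.36 CPM and at 11.2, 9.69 and 19.4 CPM in members. In Dpt and Lum stroma Postn was at 168, 80.7 and 31.2 CPM and Col12a1 at 65.4, 70.2 and 95.7 CPM. Cd44, the hyaluronan receptor, was at 20.6, 30.9 and 45.1 CPM in members and at 64.6, 106 and 133 CPM in Dpt and Lum stroma. Crip1, a LIM-domain protein, was at 165, 112 and 182 CPM in members and at 595, 367 and 598 CPM in Dpt and Lum stroma. For Postn the gap within a library was wide, but Cdk2-Y15S members had 30.6 CPM, against 31.2 CPM in Cdk2-WT Dpt and Lum stroma.

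**Figure D2:**
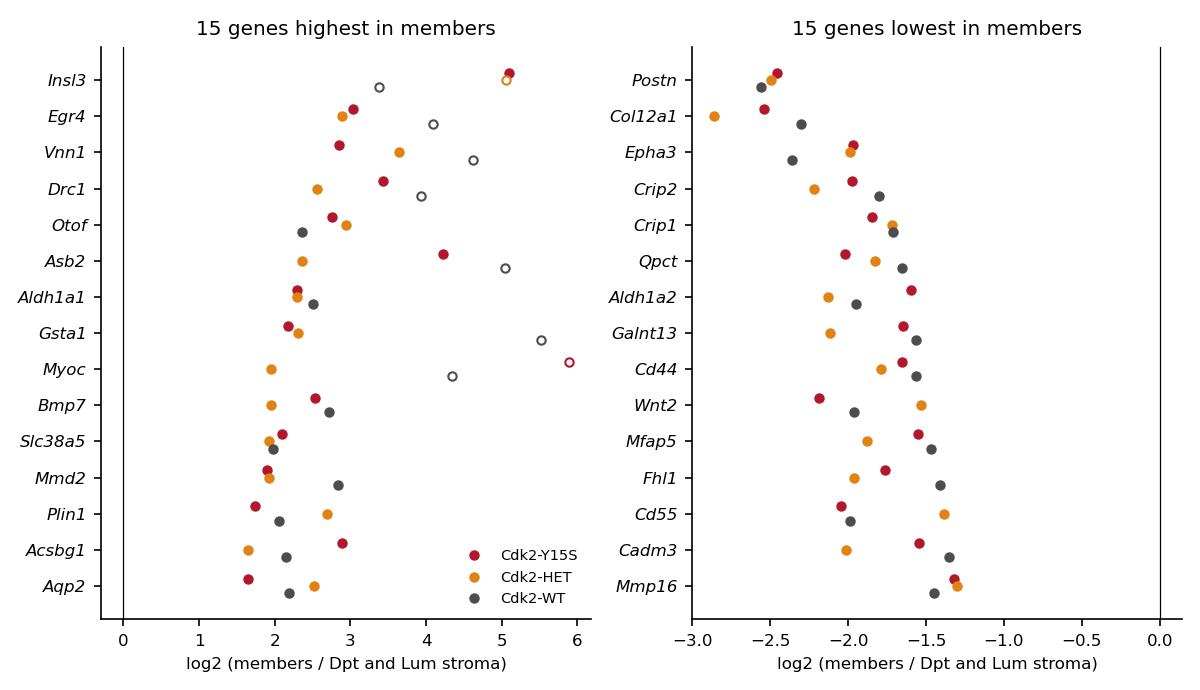
Log2 ratio of CPM in members over CPM in Dpt and Lum stroma (horizontal axes) within each library for the 15 highest and 15 lowest genes, open circles where no UMI was seen in Dpt and Lum stroma, so that the value depends on the 0.5 UMI added. All filled circles of the left panel lie above 1, and Postn lies at -2.46, -2.49 and -2.56 in Cdk2-Y15S, Cdk2-HET and Cdk2-WT.

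The members also varied among themselves, and they were described by their UMIs of the Dpt set, with no test because that set and the markers belong to the rule. Cells with no UMI of Dpt, Agtr2, Lum and Clec3b (419, 335 and 378 members in Cdk2-Y15S, Cdk2-HET and Cdk2-WT) were compared with those that had 3 or more (334, 353 and 203), at median depths of 5162, 5395 and 4476 against 5677, 5451 and 5242 UMIs. Cyp26b1 was at 347, 310 and 199 CPM in the first set and at 79.7, 73.3 and 41.9 CPM in the second. C1qtnf3, a secreted C1q-like protein, was at 130, 97.4 and 109 CPM against 18.6, 19.2 and 19.5 CPM, and the immediate early nuclear receptor Nr4a1 at 457, 397 and 397 CPM against 155, 103 and 110 CPM. The metallothionein Mt1 was at 497, 259 and 290 CPM against 173, 65.7 and 68.8 CPM. In the other direction Dcn was at 1394, 1715 and 1299 CPM against 4072, 3698 and 3580 CPM, and S100a6, Tppp3, Mfap5, Crip1 and Cd44 were also lower in each library. Smoc2 differed little, at 1110, 1164 and 1114 CPM against 1165, 1391 and 1475 CPM.

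The gene that was highest in members over Dpt and Lum stroma, Insl3, lies on chromosome 8 from 71689214 to 71690575 on the plus strand of GRCm38 and overlaps Jak3 on the same strand. Jak3 held 6, 10 and 8 UMIs in Cdk2-Y15S, Cdk2-HET and Cdk2-WT members, a level of 1.02 to 1.80 CPM, and reads of the overlap could be counted for either gene. RefSeq places the Insl3 start slightly inside that interval, and the 250 bases before it (chr8:71689002-71689251, plus strand, GRCm38) are shown because members and Leydig cells both carry its RNA. Capitals mark the letters AAGGTC, the core that nuclear receptors such as NR5A1 and NR4A1 bind, read on either strand.

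Insl3 upstream: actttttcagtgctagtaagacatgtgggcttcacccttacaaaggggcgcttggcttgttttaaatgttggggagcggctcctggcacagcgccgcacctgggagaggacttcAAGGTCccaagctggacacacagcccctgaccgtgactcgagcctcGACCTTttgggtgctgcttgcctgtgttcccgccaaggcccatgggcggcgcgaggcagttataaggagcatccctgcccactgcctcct

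The letters occurred in 2 places, the first on the plus strand with its leftmost base 136 bases before the start and the second on the minus strand with its leftmost base 90 bases before it, and they occur at least once in 10.6% of 32851 RefSeq promoter stretches. Of the receptors, Nr5a1 was at 45.6, 46.7 and 37.5 CPM and Nr4a1 at 305, 255 and 257 CPM in Cdk2-Y15S, Cdk2-HET and Cdk2-WT members.

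Insl3 was held by a minority of members, and most in the Cdk2-Y15S library. It had 399 UMIs in Cdk2-Y15S members, 138 in Cdk2-HET members and 45 in Cdk2-WT members, which is 67.9 CPM (61.4 to 74.9), 24.8 CPM (20.8 to 29.3) and 10.1 CPM (7.33 to 13.5). The 3 intervals did not overlap, but they cover counting error only and take each UMI as independent. In these libraries 5 cells held 27.1%, 26.8% and 44.4% of the Insl3 UMIs, and the highest counts in 1 cell were 36, 19 and 5. An Insl3 UMI was found in 137 Cdk2-Y15S members (12.7%, 10.7 to 14.8%), 71 Cdk2-HET members (6.94%, 5.46 to 8.67%) and 25 Cdk2-WT members (2.71%, 1.76 to 3.98%), and in 8.34%, 4.04% and 2.04% after thinning to 3000 UMIs. The Sertoli gate, where the gene should be absent, had it in 0.400%, 0.697% and 0.659% of cells, or 0.219%, 0.176% and 0.239% after thinning. In Dpt and Lum stroma it was in 2 of 234 Cdk2-Y15S cells and in 0 of 132 Cdk2-HET and 0 of 112 Cdk2-WT cells, which allow shares of up to 2.27% and 2.68%.

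The class that makes INSL3 did not show this order. In the Leydig gate Insl3 was at 2689, 2820 and 2860 CPM in Cdk2-Y15S, Cdk2-HET and Cdk2-WT, and in the myoid gate at 4.81, 3.82 and 5.14 CPM. The Leydig gate held only 29, 18 and 22 cells, at uneven median depths of 7834, 7990 and 3486 UMIs. RNA of other cells was uneven in it too. There 12 macrophage genes summed to 2034, 0 and 0 CPM and 7 erythroid genes to 0, 1949 and 18.8 CPM. The whole list of 15 fetal Leydig genes summed to 469, 446 and 378 CPM in members, to 391, 329 and 367 CPM in Dpt and Lum stroma and to 7976, 11139 and 17049 CPM in the Leydig gate, with Cyp11b1 at 0 in members of all 3 libraries. Its defining enzymes were near 0 in members: Cyp17a1 was at 3.23, 6.10 and 2.68 CPM, Cyp11a1 at 1.87, 1.97 and 1.12 CPM and Star at 2.04, 0.718 and 0.670 CPM, the rule having capped the first 2 of them. In members with no UMI of Cyp11a1, Cyp17a1 and Hsd3b1, Insl3 was still in 122 of 1028 Cdk2-Y15S cells (11.9%), 60 of 963 Cdk2-HET cells (6.23%) and 23 of 887 Cdk2-WT cells (2.59%), at 46.1, 19.2 and 9.09 CPM. That set was chosen after the data had been seen.

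**Figure D3:**
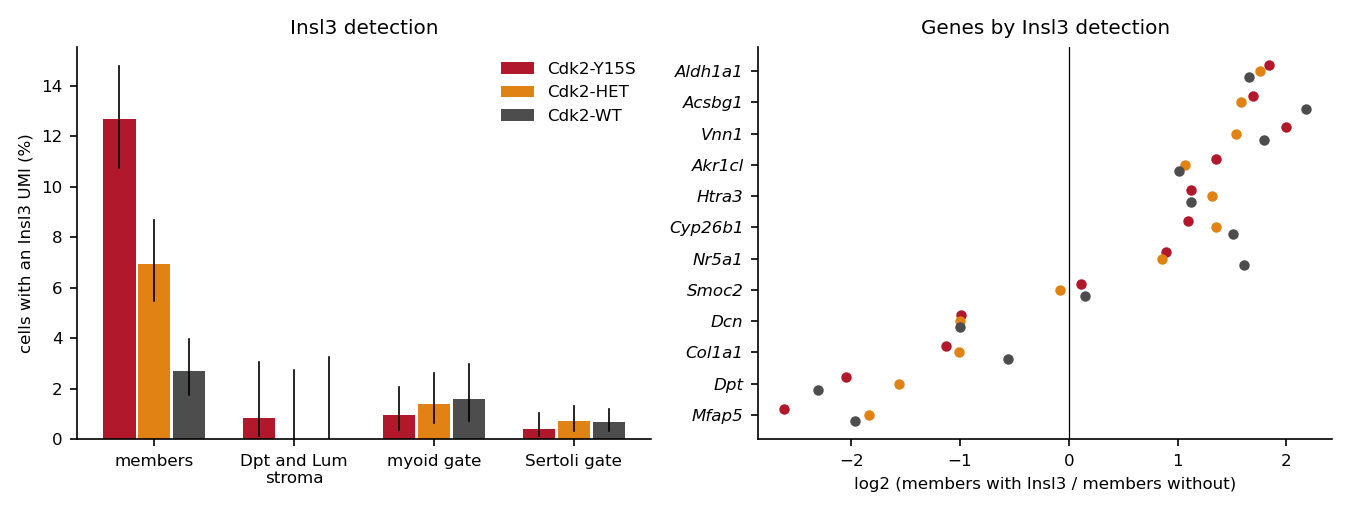
Left, percent of cells with an Insl3 UMI in 4 classes for each library, bars from 0 with 95% Clopper-Pearson intervals. Right, log2 ratio of CPM in members with Insl3 over members without it for 12 genes, 1 point for each library. Members reach 12.7%, 6.94% and 2.71% in Cdk2-Y15S, Cdk2-HET and Cdk2-WT while the Sertoli gate stays under 1%, and Dpt and Mfap5 lie at the low end of the right panel.

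Members with Insl3 stood apart from the other members in further genes. They were deeper, with a median of 6203, 6916 and 6096 UMIs against 5243, 5303 and 4788 UMIs in members without it, and held more marker UMIs, with medians of 20, 27 and 27 against 11, 12 and 10. Aldh1a1 was at 269, 232 and 209 CPM in members with Insl3 and at 75.1, 68.8 and 67.0 CPM in members without it. Acsbg1 was at 237, 183 and 258 CPM against 73.3, 61.5 and 57.5 CPM, and the steroidogenic regulator Nr5a1 at 75.2, 78.1 and 104 CPM against at most 43.5 CPM. Defb19, a defensin-like peptide, was at 286, 236 and 166 CPM against 80.3, 88.6 and 70.9 CPM. Lhcgr, the luteinizing hormone receptor of Leydig cells, was at 18.5, 15.6 and 18.4 CPM in members with Insl3, from 16, 8 and 3 UMIs, and at 2.40, 3.76 and 2.09 CPM in members without it. The steroid enzyme Cyp17a1, which the rule capped, was at 17.3, 31.2 and 12.3 CPM against 0.799, 3.56 and 2.32 CPM. Its levels in members with Insl3 came from 15, 16 and 2 UMIs. Star was also higher in each library, from 5, 1 and 1 UMIs. Hsd3b1 and Cyp11a1, also capped, were not. Hsd3b1 had 6.94 and 11.7 CPM against 6.79 and 4.55 CPM in Cdk2-Y15S and Cdk2-HET. Cyp11a1 had 5.78 and 5.85 CPM against 1.20 and 1.58 CPM there. In Cdk2-WT both had 0 UMIs in members with Insl3, against 19 and 5 UMIs. Cyp11b1 had none in either set.

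Dcn, Col1a1 and Lhx9 were lower in the members with Insl3. Dcn was at 1409, 1372 and 1112 CPM against 2793, 2739 and 2236 CPM in members without it, and Col1a1 at 941, 902 and 793 CPM against 2063, 1815 and 1171 CPM. Lhx9, a transcription factor of gonadal progenitors, was at 86.7, 60.5 and 55.3 CPM against 183, 185 and 154 CPM. Smoc2 was at 1190, 1204 and 1364 CPM against 1098, 1271 and 1233 CPM. Across the 5800 genes with at least 300 UMIs that the rule did not use, Insl3 had rank 3 by the spread between cells beyond counting noise in the library where that spread was lowest, after Egr4 and Hmox1.

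Between genotypes, the 2 contrasts share the Cdk2-WT library, so their likeness is no evidence and the values are given side by side. Of 7941 genes with at least 100 UMIs in the sums of Cdk2-Y15S and Cdk2-WT members, 267 (3.36%) were at least 1.5-fold higher and 247 (3.11%) at least 1.5-fold lower in Cdk2-Y15S, around a median log2 ratio of -0.02. Of 7851 genes in Cdk2-HET over Cdk2-WT, 164 (2.09%) were higher and 123 (1.57%) lower, around a median of 0.01. Cdk2 itself was at 26.6, 28.7 and 28.8 CPM in Cdk2-Y15S, Cdk2-HET and Cdk2-WT members, a log2 ratio of -0.12 (-0.46 to 0.23) for Cdk2-Y15S over Cdk2-WT. Because the allele replaces a single amino acid and the counts come from the 3′ end, this level neither shows nor checks the allele.

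The markers that chose the cells differed between libraries within the chosen cells. Cyp26b1 was higher in Cdk2-Y15S than in Cdk2-WT members by 0.72 log2 (0.58 to 0.86) and in Cdk2-HET by 0.47, and Vcam1 by 0.84 (0.58 to 1.10) and 0.69. Htra3 was 0.21 higher in Cdk2-Y15S (0.15 to 0.26), but only 0.03 higher once members with an Insl3 UMI were left out. Smoc2 was 0.16 lower (-0.21 to -0.10). The Vcam1 ratio of Cdk2-Y15S over Cdk2-WT was -0.10 (-1.09 to 1.04) in Dpt and Lum stroma and 0.64 (-0.46 to 1.88) in the myoid gate, and both intervals cover the members' value.

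The 10 genes highest in Cdk2-Y15S over Cdk2-WT members with at least 200 UMIs were Rpl29, Insl3, Postn, Hmox1, Ifi27l2a, Dera, Slc7a8, Stk25, Sult1a1 and Lbx2. Rpl29, a ribosomal protein with many near-identical copies, was at 575 CPM in Cdk2-Y15S, 35.4 in Cdk2-HET and 31.5 in Cdk2-WT. Its log2 ratio was 4.19 for Cdk2-Y15S over Cdk2-WT, and whether the copies affected its count was not tested. The same Rpl29 ratio was 4.16 in Dpt and Lum stroma, 4.21 in the Sertoli gate and 3.26 in the Leydig gate, so that it was large in each class. Insl3 was higher by 2.74 log2 (2.31 to 3.23), against -0.09 (-0.29 to 0.12) in the Leydig gate and -0.10 (-1.25 to 1.07) in the myoid gate. Postn, at 30.6, 14.4 and 5.36 CPM, was higher by 2.49 (1.90 to 3.19) and by 2.39 (1.70 to 3.26) in Dpt and Lum stroma.

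Ifi27l2a, Stk25, Slc7a8 and Lbx2 were further genes of that set. Ifi27l2a, an interferon-induced gene, was at 68.8, 52.6 and 22.8 CPM in Cdk2-Y15S, Cdk2-HET and Cdk2-WT members and higher by 1.59 log2 (1.28 to 1.92), with 2.02 in Dpt and Lum stroma, 1.14 in the myoid gate and 0.56 (-0.12 to 1.26) in the Sertoli gate. Stk25, a kinase, was higher by 1.28 in members, 0.79 in Dpt and Lum stroma, 1.14 in the myoid gate and 1.01 in the Sertoli gate. Slc7a8, an amino acid transporter, was at 28.4, 26.4 and 11.4 CPM and higher by 1.31 (0.86 to 1.80) in members, against -0.28 (-1.41 to 0.82) in the myoid gate and -0.22 (-0.96 to 0.48) in the Sertoli gate. Lbx2, a homeobox gene, was at 30.5, 21.9 and 12.7 CPM and higher by 1.25 (0.82 to 1.72). Differences of these ratios between classes were not tested.

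Hmox1, which encodes the heme-degrading and stress-induced enzyme heme oxygenase, rested on few cells. It was at 78.8, 20.1 and 15.2 CPM in Cdk2-Y15S, Cdk2-HET and Cdk2-WT members, but 63.5% of the Cdk2-Y15S UMIs lay in 5 cells and 139 of 463 in 1 cell. Without the 5 highest cells of each library the log2 ratio for Cdk2-Y15S over Cdk2-WT was 1.41, against 2.37 with them. The share of members with an Hmox1 UMI was 9.70%, 7.72% and 5.75%, below the 28.3%, 32.8% and 32.9% of the Sertoli gate, and the part of free RNA in it was not tested.

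The 10 lowest genes were Vstm2b, Alpl, Aspn, Fibin, Oser1, Tcf19, Dhcr7, Sqle, Cd44 and Mcm5. Alpl, tissue alkaline phosphatase, was at 10.2, 13.3 and 31.9 CPM in Cdk2-Y15S, Cdk2-HET and Cdk2-WT members, a log2 ratio of -1.64 (-2.10 to -1.20). Aspn, a small leucine-rich proteoglycan that binds TGF-beta, was at 31.8, 47.8 and 82.2 CPM, a ratio of -1.37 (-1.63 to -1.11), and at -1.86 (-2.28 to -1.45) in Dpt and Lum stroma. Vstm2b was at 10.6, 18.7 and 42.2 CPM, a ratio of -1.99, with -1.85 in Dpt and Lum stroma and -0.36 (-0.76 to 0.05) in the myoid gate. Oser1, an oxidative stress-responsive gene, had a ratio of -1.23 (-1.44 to -1.03) in members, -1.01 (-1.54 to -0.48) in Dpt and Lum stroma and -1.39 (-1.66 to -1.12) in the myoid gate. It was -1.69 (-1.89 to -1.51) in the Sertoli gate and -2.44 (-4.36 to -0.97) in the Leydig gate, and the differences between classes were not tested. Levels in Cdk2-HET lay between those of the other 2 libraries for all of the genes in this paragraph.

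**Figure D4:**
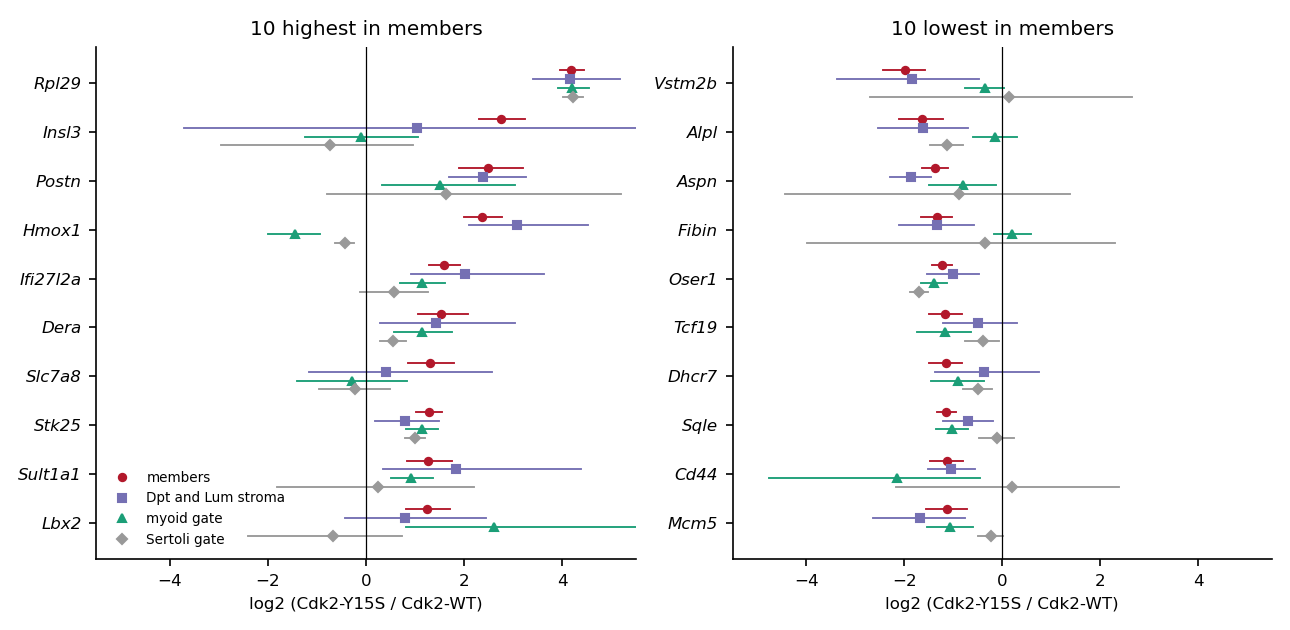
Log2 ratio of Cdk2-Y15S over Cdk2-WT CPM (horizontal axes) for the 10 highest and 10 lowest genes of the members, with the same ratio in 3 other cell classes and 95% counting intervals, axes ending at 5.5. Rpl29 coincides at about 4.2 in all 4 classes, whereas Insl3 stands at 2.74 in members with -0.10 in the myoid gate.

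Genes of DNA replication, which CDK2 with cyclin E or A helps to start, were lower in Cdk2-Y15S members. All 24 of 24 listed S phase genes had a ratio below 0, with a median of -0.79 against 0.00 over all genes with as many UMIs, and 15 were at least 1.5-fold lower. With the 20 UMIs in the 2 sums that lists required, 5.57% of all genes were that much lower and 8.42% that much higher. Mcm5, of the replicative helicase, was at 14.0, 18.1 and 30.6 CPM in Cdk2-Y15S, Cdk2-HET and Cdk2-WT members, and Fen1, the flap endonuclease, at 5.45, 10.1 and 16.3 CPM. Pcna, the polymerase clamp, was at 6.30, 17.1 and 16.8 CPM. Ccne1, a cyclin that activates CDK2, was at 3.58, 5.92 and 8.94 CPM and Ccne2 at 2.72, 2.87 and 6.03 CPM. In Cdk2-HET over Cdk2-WT the median was -0.37, with 22 of 24 below 0 and 7 at least 1.5-fold lower, where 4.02% of all genes were that much lower and 6.25% that much higher. With Cdk2-Y15S set against Cdk2-HET in place of Cdk2-WT, the median was -0.22.

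The rule touches this list, since it capped 8 other cycle genes at a fixed number of UMIs. In members with no UMI of any of the 8, the S phase median was -0.71, and with the rule applied to cells thinned to 3000 UMIs it was -0.77. The same median for Cdk2-Y15S over Cdk2-WT was -0.55 in Dpt and Lum stroma, -0.70 in the myoid gate and -0.21 in the Sertoli gate. Genes of G2 and M phase gave no such order: 10 of 17 were above 0 with a median of 0.16 in the members, and the median was -0.63 with the thinned rule, so its direction depended on how cells were chosen. Among CDK2 and its regulators, 13 of 17 were below 0 with a median of -0.21. The 4 that were at least 1.5-fold lower, beside 5.57% of all genes, were Ccne1, Ccne2, Cks1b and Pkmyt1. In Cdk2-HET over Cdk2-WT, 12 of 17 were below 0 with a median of -0.25. There 4 were also at least 1.5-fold lower, beside 4.02% of all genes. Cks1b, a CDK-binding subunit, was at 177, 229 and 279 CPM. Cdkn1c, an imprinted CDK inhibitor, was at 453, 544 and 393 CPM, and Wee1, a kinase that phosphorylates the replaced tyrosine, at 24.3, 27.1 and 28.2 CPM.

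Genes of cholesterol synthesis and uptake were lower together in Cdk2-Y15S members. All 20 of 20 listed genes were below 0, with a median of -0.56, and 10 were at least 1.5-fold lower. Of all 11384 genes with at least 20 UMIs, 5625 were below 0 and 5.57% were at least 1.5-fold lower. Sqle, the epoxidase that commits squalene to sterols, was at 57.0, 73.8 and 126 CPM in Cdk2-Y15S, Cdk2-HET and Cdk2-WT members, a log2 ratio of -1.14 (-1.34 to -0.94). Dhcr7, the last reductase of the pathway, was at 19.9, 23.5 and 44.2 CPM. Srebf2, the regulator of the pathway, was at 27.9, 31.6 and 31.3 CPM, differences within its counting intervals. In Cdk2-HET over Cdk2-WT, 19 of 20 were below 0 with a median of -0.46. Of the 20, 5 were at least 1.5-fold lower, beside 4.02% of all genes. With Cdk2-Y15S set against Cdk2-HET the median was -0.19. The Cdk2-Y15S median was -0.54 in Dpt and Lum stroma and -0.55 in the myoid gate but 0.01 in the Sertoli gate, and the difference between classes was not tested.

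SREBF2 and its relative bind sterol elements, of which the letters CACCCCAC are a known form. Of the 20 genes, 14 had a RefSeq promoter entry, and only Hmgcs1, the first committed synthase of the pathway, had these letters in the 250 bases before its start, while 2.58% of 32851 entries have them. Its stretch (chr13:119690101-119690350, plus strand, GRCm38) is printed with the match in capitals.

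Hmgcs1 upstream: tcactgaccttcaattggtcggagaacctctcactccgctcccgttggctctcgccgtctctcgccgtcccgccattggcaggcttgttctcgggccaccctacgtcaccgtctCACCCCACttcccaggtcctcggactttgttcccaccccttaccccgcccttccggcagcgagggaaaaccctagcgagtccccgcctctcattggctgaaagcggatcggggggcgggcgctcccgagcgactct

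Hmgcs1 was at 65.0, 68.0 and 78.0 CPM in Cdk2-Y15S, Cdk2-HET and Cdk2-WT members, a log2 ratio of -0.26 (-0.47 to -0.05). It thus differed less than the list as a whole.

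Genes of fibrillar collagens and matrix glycoproteins were mixed. Of 23 measured, 17 were above 0 in Cdk2-Y15S over Cdk2-WT with a median of 0.24. At least 1.5-fold higher were 5 and lower 1, Col12a1, beside 8.42% and 5.57% of all genes. The 5 were Col1a1, Col1a2, Col3a1, Col5a2 and Postn, of which the rule had used the first 3. In Cdk2-HET over Cdk2-WT, 15 were above 0 with a median of 0.14. There 3 were at least 1.5-fold higher and 1 lower, beside 6.25% and 4.02% of all genes. With Cdk2-Y15S set against Cdk2-HET the median was 0.03. Col1a1, a chain of type I collagen, was at 1897, 1731 and 1157 CPM in Cdk2-Y15S, Cdk2-HET and Cdk2-WT members, and Col3a1 at 1955, 1919 and 1218 CPM, genes whose sum the rule had used at a low cut. Col5a2, which the rule had not used, was at 164, 165 and 98.7 CPM, a log2 ratio of 0.73 (0.57 to 0.90). Sparc, a collagen-binding protein, was at 2473, 2073 and 1883 CPM, while Bgn, biglycan, was at 738, 722 and 838 CPM and Vcan, versican, at 58.7, 64.3 and 74.4 CPM. The list's median was 0.26 in Dpt and Lum stroma, 0.27 in the myoid gate and 0.64 in the Sertoli gate, where 11 of 19 genes were at least 1.5-fold higher and 1 lower, beside 9.61% and 5.56% of all genes of that gate. Sertoli cells are not a known source of fibrillar collagen, and the part of free RNA in the members' values was not tested beyond a subtraction of 10%, which gave a median of 0.22.

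Basement membrane genes, 18 measured, had a median of 0.23. Beside 8.42% of all genes, 3 of them were at least 1.5-fold higher. These were Sparcl1, at 298, 200 and 126 CPM in Cdk2-Y15S, Cdk2-HET and Cdk2-WT members, and the collagen IV chains Col4a5, at 52.4, 35.4 and 26.6 CPM, and Col4a6, at 15.2, 13.5 and 9.16 CPM. The laminins Lama2 and Lamb1 were at 153, 167 and 149 CPM and at 150, 167 and 149 CPM. Of 25 proteases, crosslinkers and inhibitors, 2 were higher, a share near the 8.42% of all genes: Htra1, a relative of Htra3, at 62.8, 46.5 and 38.4 CPM, and Timp1, an inhibitor of matrix metalloproteinases, at 116, 86.3 and 68.1 CPM. Of 19 adhesion and guidance genes, 4 were at least 1.5-fold lower, beside 5.57% of all genes. Among the 4 was the adhesion molecule Ncam1, with a log2 ratio of -1.32. The integrin subunit Itga4, part of the receptor that binds VCAM1, was another, at 38.8, 49.2 and 63.2 CPM. Cd44 was also among the 4, with a log2 ratio of -1.13.

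**Figure D5:**
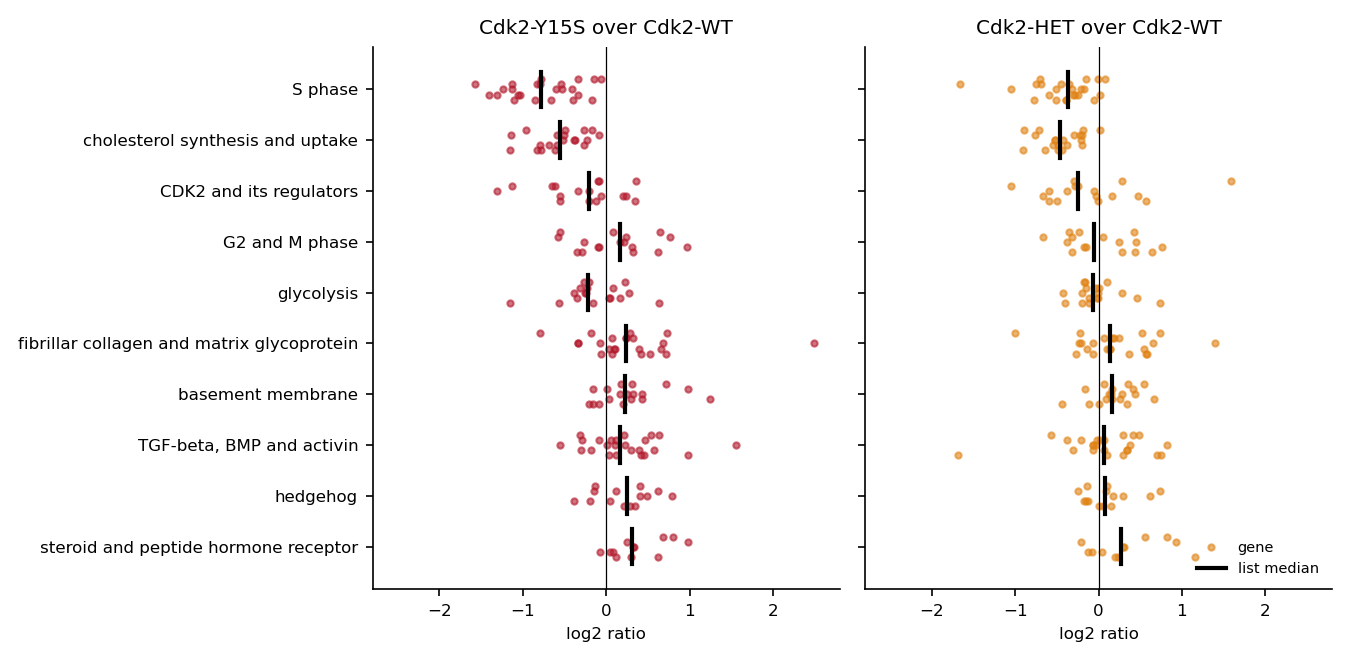
Log2 ratio of each gene (points) and list median (black bars) for 10 gene lists in members, Cdk2-Y15S over Cdk2-WT on the left and Cdk2-HET over Cdk2-WT on the right, both against the same Cdk2-WT library. The S phase and cholesterol lists lie below 0 with medians of -0.79 and -0.56 on the left and -0.37 and -0.46 on the right.

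Signalling lists held few genes past 1.5-fold, and their counts stand beside the 8.42% of all genes that were that much higher and the 5.57% that were that much lower in Cdk2-Y15S. Hedgehog target genes Ptch1 and Gli1, which report desert hedgehog from Sertoli cells, were at 184, 161 and 178 CPM and at 61.3, 61.6 and 67.5 CPM in Cdk2-Y15S, Cdk2-HET and Cdk2-WT members, and 10 of 14 pathway genes were above 0 with 2 at least 1.5-fold higher. Of 24 TGF-beta, BMP and activin genes, 18 were above 0 and 3 were at least 1.5-fold higher, among them Id2 and Fst. Id2, a BMP-induced inhibitor of differentiation, was at 206, 169 and 104 CPM, and Fst, the activin trap, at 14.6, 8.80 and 4.92 CPM. Id1 and Id3 were at 597, 549 and 411 CPM and at 885, 757 and 597 CPM. Inhba, the activin subunit, was at 663, 717 and 751 CPM.

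Among Wnt genes, 13 of 18 were below 0, with 3 at least 1.5-fold lower. Wnt4 was at 12.1, 13.5 and 24.6 CPM in Cdk2-Y15S, Cdk2-HET and Cdk2-WT members, and Sfrp1, a secreted inhibitor, at 187, 226 and 279 CPM. Wnt5a was at 82.6, 96.0 and 94.1 CPM. In the retinoid list, 14 measured, Aldh1a1 had a log2 ratio of 0.52 (0.33 to 0.72) and Aldh1a3, a further retinal dehydrogenase, was at 9.87, 8.98 and 4.02 CPM. Aldh1a2 had a ratio of -0.65 (-1.11 to -0.20) and Stra6, the retinol receptor, was at 13.4, 18.8 and 22.3 CPM. In the insulin-like growth factor list Igf1 was at 910, 758 and 657 CPM, Igfbp7 at 1534, 1428 and 1092 CPM and Igf2 at 104, 156 and 155 CPM.

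Hormone receptors and niche factors completed the signalling lists. Of 12 receptors, 11 were above 0 with a median of 0.31, and 4 were at least 1.5-fold higher, all at low levels: Amhr2, Lhcgr, Inhbb, an activin subunit on the same list, and Pgr, the progesterone receptor, at 7.66, 7.36 and 3.80 CPM. Thra, a thyroid hormone receptor, was at 405, 397 and 323 CPM, and Prlr, the prolactin receptor, at 164, 156 and 133 CPM. The chemokine Cxcl12, which holds germ cells through CXCR4, was at 1157, 1172 and 1351 CPM, and the growth factor Mdk, midkine, at 1339.5, 1489 and 953 CPM. Gdnf, the factor for spermatogonial stem cells, had 24, 15 and 5 UMIs in all members, too few to read. Kitl was at 14.1, 13.3 and 16.1 CPM.

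Interstitial transcription factors differed little, with 11 of 21 above 0 and a median of 0.03. Tcf21 was the exception, with a log2 ratio of 0.63 (0.51 to 0.76) for Cdk2-Y15S and 0.74 for Cdk2-HET over Cdk2-WT, while Nr2f2 had -0.07 for Cdk2-Y15S. Tcf21 was also higher in the myoid gate, at 419, 401 and 222 CPM in Cdk2-Y15S, Cdk2-HET and Cdk2-WT. Among the stress genes, Jun was at 1159, 1637 and 1573 CPM and Klf4 at 1153, 1485 and 1651 CPM, whereas Fosb was at 750, 695 and 566 CPM and Dnajb1 at 525, 453 and 377 CPM. The 21 genes of that list had a median of -0.09, and the 13 mitochondrially encoded genes a median of 0.07.

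The remaining lists held few differences, and counts of 1 to 3 genes in them are not read apart from the 8.42% and 5.57% of all genes. Of 18 glycolytic genes, 11 were below 0 with a median of -0.22, and Slc2a1, a glucose transporter, was at 4.77, 8.08 and 10.7 CPM in Cdk2-Y15S, Cdk2-HET and Cdk2-WT members, while Ldhb, a lactate dehydrogenase subunit, was at 224, 241 and 145 CPM. Of 14 complement and innate genes, 3 were at least 1.5-fold higher, among them the proteases C1ra, at 28.3, 21.2 and 17.6 CPM, and C1s1, at 45.1, 26.2 and 28.6 CPM. Of 15 genes of adventitial-type fibroblasts, 2 were higher and 1 lower, with Pi16 at 9.53, 4.31 and 2.46 CPM and Fbln1, a matrix protein, at 64.0, 79.5 and 99.6 CPM. Of 19 imprinted genes, 2 were higher, with Nnat at a log2 ratio of 0.82, while H19 was at 826, 921 and 813 CPM. Medians were -0.02 for 16 p53 targets, -0.05 for 10 Notch genes and -0.07 for 6 PDGF genes, of which the ligand Pdgfa was at 25.4, 23.3 and 33.5 CPM.

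The 5 genes highest in Cdk2-HET over Cdk2-WT members were Sult1a1, Ifi27l2a, Sesn3, Gm10320 and Plac8, and the 5 lowest Rpl21, Il11ra1, Chrdl1, Igfbp5 and Alpl. Sult1a1, Ifi27l2a and Alpl were also among the most different genes of Cdk2-Y15S over Cdk2-WT. Sesn3, Plac8 and Igfbp5 had ratios of 1.15, 0.91 and -0.99 in Cdk2-Y15S over Cdk2-WT, on the same side as in Cdk2-HET. Rpl21, Il11ra1 and Chrdl1 had -0.33, -0.13 and 0.12 there, and Gm10320 was at 154, 294 and 153 CPM in Cdk2-Y15S, Cdk2-HET and Cdk2-WT members. The Gm10320 ratio of Cdk2-HET over Cdk2-WT was 0.94 in members and 0.85 in Dpt and Lum stroma. It was 0.93 in both the myoid gate and the Sertoli gate. Rpl21, another ribosomal protein with many copies, was at 953 CPM in Cdk2-Y15S, 47.9 in Cdk2-HET and 1193 in Cdk2-WT members, a log2 ratio of -4.64 for Cdk2-HET over Cdk2-WT, with -4.25 in Dpt and Lum stroma and -4.65 in the Sertoli gate. Chrdl1, a BMP antagonist, was at 38.6 CPM in Cdk2-Y15S and 35.5 CPM in Cdk2-WT members and lower in Cdk2-HET members, a ratio of -1.69 (-2.15 to -1.26), with -2.29 in the myoid gate, and Il11ra1, the interleukin 11 receptor, at 58.1, 17.8 and 63.4 CPM, a ratio of -1.83. Plac8 was at 147, 148 and 78.2 CPM, a ratio of 0.92 (0.74 to 1.11). Cdkn1a, a CDK inhibitor and p53 target, was at 10.4, 24.4 and 8.04 CPM, but its UMIs lay in only 18, 13 and 7 members.

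Genes listed for other cell types differed between the libraries in part, and whether their RNA came from those cells was not tested. The 12 macrophage genes summed to 43.4, 36.6 and 6.03 CPM in Cdk2-Y15S, Cdk2-HET and Cdk2-WT members. Cx3cr1 was at 0 in Cdk2-Y15S, and Adgre1, Mrc1 and Laptm5 were at 0 in Cdk2-WT. Of 6 measured, 6 were at least 1.5-fold higher in Cdk2-Y15S than in Cdk2-WT, beside 8.42% of all genes. The most abundant, Lyz2, had 127 UMIs in 10 cells in Cdk2-Y15S, 33 in 8 cells in Cdk2-HET and 5 in 5 cells in Cdk2-WT. Of these UMIs, 1 Cdk2-Y15S cell held 118 and 1 Cdk2-HET cell held 21, so the Lyz2 level rested on few cells. The 7 erythroid genes with an entry summed to 6.64, 23.3 and 30.8 CPM and the 15 Sertoli genes to 571, 636 and 522 CPM, of which Amh was at 6.30, 13.5 and 16.1 CPM. The 15 myoid genes summed to 1686, 1703 and 1886 CPM, against 10631 to 13325 CPM in the myoid gate, and the 14 germ cell genes to 18.2, 11.1 and 9.16 CPM. The 12 endothelial genes summed to 417, 448 and 423 CPM, most of it Ramp2 and Cdh5, and Pecam1 was at 5.79, 4.49 and 6.48 CPM. The 10 pericyte genes summed to 55.2, 62.7 and 63.2 CPM and the 10 rete and epithelial genes to 2.04, 4.31 and 2.46 CPM. The 10 mesothelial genes summed to 13.4, 13.5 and 21.9 CPM, of which Aldh1a2 made 12.9, 12.0 and 20.3 CPM, with Upk3b and Msln at 0 in all 3 libraries. The 10 neural and glial genes summed to 228, 195 and 135 CPM, of which S100b made 192, 155 and 103 CPM, and Sox10 was at 0 in Cdk2-Y15S and Cdk2-WT. The part of these RNAs in the members' differences was not tested.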

How the data were processed

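Single-cell RNA-seq of 3 mouse testis libraries, 1 for each Cdk2 genotype, was deposited by the authors as a matrix of UMI counts, unnormalised, with a barcode suffix that names the library. The submitters' processing notes name mm10, Seurat and Cell Ranger 2.1.0, with no role for each. The barcodes had been called as cells before deposit, and the authors' deposited map of germ cell barcodes to clusters served only to check that none was a member. Their separate count table of germ cells was not used here.

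The members, gene lists and tests were chosen with earlier results of these data known. Counts were summed over members of each library and expressed as CPM, and log2 ratios were taken with 0.5 UMI added to each sum, for genes with at least 100 UMIs in the 2 sums (20 for genes of the lists). With 1 library for each genotype no model was fitted. Intervals are exact at 95%, and 0 counts were read against a limit of 3 counts. PCR and droplet effects beyond counting are not covered. Doublets were called with Scrublet in scanpy 1.11.5 at an expected rate of 6%, and called cells were kept in the main values. Shares of cells were repeated after thinning each cell to 3000 UMIs. The 36 gene lists hold 606 genes, of which 4 had no entry in the matrix.

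Named genes were the rule's marker genes, Cdk2, the 10 highest and 10 lowest ratios of Cdk2-Y15S against Cdk2-WT, and 5 and 5 of Cdk2-HET, among genes with at least 200 UMIs, the 15 highest and 15 lowest against the Dpt and Lum stroma, the 10 most abundant genes, and 2 highest and 2 lowest of each list, with further list genes where a role is described. Genes that differ within the members by Insl3 or by the Dpt set were picked after their values were seen. Promoter sequences and positions came from RefSeq and GENCODE on GRCm38. The scripts, in Python 3.11.15 with numpy 2.4.6, scipy 1.17.1 and pandas 2.3.3, were tested on simulated data. Alternatives changed the limits of the rule, the depth, the scaling, the UMI minimum, the count added, the doublets, the background and the library set below the line of the ratio.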

Additional observations from a re-analysis of the deposited data

Results flagged for a closer look

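Hmox1 was picked out because its log2 ratio of Cdk2-Y15S over Cdk2-WT had opposite signs in different cell classes, at 2.37 (2.01 to 2.76) in members, -1.45 (-1.99 to -0.94) in the myoid gate and -0.44 (-0.63 to -0.25) in the Sertoli gate. The difference between classes was not tested, and single cells weigh heavily on both sides: 1 Cdk2-Y15S member held 139 UMIs and 1 Cdk2-WT cell of the myoid gate held 67.

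Igfbp5, which encodes an insulin-like growth factor binding protein, was picked out for Cdk2-HET over Cdk2-WT, at -1.27 in members and 0.28 in the myoid gate. This difference was not tested either. Its level in Cdk2-Y15S, Cdk2-HET and Cdk2-WT members was 35.9, 29.6 and 71.5 CPM.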

How the results depend on the processing

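No paired analysis was possible because each genotype is 1 library. The members' share of Cdk2-WT cells was 16.9% with at least 4 marker UMIs and 16.6% with at least 10 UMIs of collagens and Dcn. With the rule applied to cells thinned to 3000 UMIs, shares were 25.5% in Cdk2-Y15S, 24.0% in Cdk2-HET and 20.3% in Cdk2-WT.

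Counts of genes followed the UMI minimum. At 20 UMIs, 959 genes were higher and 634 lower in Cdk2-Y15S over Cdk2-WT, and 704 higher and 453 lower in Cdk2-HET over Cdk2-WT. At 500 UMIs the same counts were 50 and 48, and 23 and 20. Cdk2-Y15S over Cdk2-HET gave 105 higher and 94 lower. After 10% ambient RNA was subtracted, 248 genes were higher in Cdk2-HET over Cdk2-WT and 127 were lower in members than in Dpt and Lum stroma. With 5 UMIs added, 17 genes were higher and 156 lower than in Dpt and Lum stroma, and 47 were lower with ribosomal, mitochondrial and hemoglobin genes out of the totals. The causes were not tested beyond what the settings themselves change.

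For single genes, 588 of the alternative log2 ratios stayed within the counting error of the main value and 11 moved beyond it. Insl3 in Cdk2-Y15S over Cdk2-WT ranged from 2.33 to 3.74 and Hmox1 from 1.41 to 2.99. For list medians 766 stayed between the quartiles of the list's own genes and 9 moved beyond them, among them G2 and M phase in Cdk2-Y15S over Cdk2-WT at -0.63 with the thinned rule and -0.39 with ambient RNA subtracted. With Cdk2-Y15S set against Cdk2-HET the median was -0.22 for S phase, -0.19 for cholesterol and 0.03 for fibrillar collagens and glycoproteins. Under the other alternatives these 3 medians ran from -1.06 to -0.67, from -0.60 to -0.43 and from 0.14 to 0.28. The settings without Insl3 cells, without cycle UMIs, without steroid enzyme UMIs and without the 5 highest cells were chosen after seeing the data. Genes under about 20 UMIs are limited by depth, and all differences between genotypes lack replicates.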
